A study of Mus musculus with 6 samples.

Results

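The leucine (Leu), serine (Ser) and selenocysteine (SeC) transfer RNAs (tRNAs) were taken as the rows of the deposited tRNA table whose names give one of these amino acids. They made up 47 of the 381 rows of that table, with 24 Leu, 22 Ser and 1 SeC rows. Each row is 1 gene copy of a cytosolic tRNA, and the copies were summed to 11 of the 71 anticodons or mitochondrial tRNAs in the table.

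tRNAs carry amino acids to the ribosome and read codons through a base triplet called the anticodon. Those for Leu, Ser and SeC share a long variable arm, a stem that other cytosolic tRNAs lack. The SeC tRNA is first charged with serine, and seryl-tRNA synthetase acts on both the Ser and the SeC tRNAs. Before use, a tRNA precursor loses its leader and its 3′ trailer, and the bases CCA, which mammalian tRNA genes do not encode, are added to its 3′ end. Nucleases such as angiogenin can cut tRNAs into shorter fragments, and small RNA libraries capture such pieces.

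The libraries held small RNA from mouse urinary bladder cells, with 3 libraries from the CYP group and 3 from the Control group. CYP mice, 8 weeks old, were injected intraperitoneally with cyclophosphamide, an alkylating agent with bladder-toxic metabolites in the urine, in 4 doses of 80 mg/kg on days 2, 4, 6 and 8. Their label gives a time of 8 days after induction. Control mice of the same age were injected intraperitoneally with saline. The labels used here give neither strain nor genotype, and nothing in them ties the 3 libraries of a group to different mice. The p-values therefore rest on the spread between libraries, which may be technical in part or in whole. Levels are UMI counts. A UMI, or unique molecular identifier, is a random tag added to each cDNA molecule before amplification, so that copies of 1 molecule are counted once.

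The tRNA table records neither the length nor the position of the reads behind a row, and the sources used here do not say whether a row counts 5′, 3′ or inner pieces. Sequences of Leu and Ser tRNA pieces could be read from a second deposited table, of mappable sequences left uncharacterized by the authors. It lists 33 sequences within 40 bases of a Leu or Ser tRNA gene of RefSeq (build GRCm38.p6, the same as mm10), 27 at Ser genes and 6 at Leu genes. The 5′ pieces are all printed below, with the most abundant 3′ pieces of 4 anticodons, since their values are given further on. In the 5′ pieces the capital is the first base, which lies 1 base upstream of the annotated gene. In the 3′ pieces the capitals are the CCA that follows the last gene base, and the coordinates include it. The genome sequence was not read here, so whether the genome also holds CCA at these places was not checked.
5′ piece at Ser-AGA n-TSaga9, chr4:10874063-10874081, plus strand: Agtagtcgtggccgagtgg
5′ piece at Ser-TGA n-TStga3, chr10:63429540-63429558, minus strand: Agcagcgatggccgagtgg
5′ piece at Ser-TGA n-TStga2, chr13:21924999-21925017, minus strand: Ggtagtcgtggccgagtgg
5′ piece at Ser-CGA n-TScga2, chr10:128458528-128458546, minus strand: Agtcacggtggccgagtgg
3′ piece at Ser-AGA n-TSaga5, chr13:21919282-21919299, plus strand: atcctgccgactacgCCA
3′ piece at Ser-GCT n-TSgct3, chr11:69063039-69063060, minus strand: tcgaatcccatcctcgtcgCCA
3′ piece at Ser-CGA n-TScga2, chr10:128458461-128458478, minus strand: atcctgttcgtgacgCCA
3′ piece at Leu-CAA n-TLcaa3, chr11:58302471-58302493, minus strand: ttcgaatcccacttctgacaCCA

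The 47 RefSeq genes for nuclear Leu and Ser tRNAs had a median length of 82 bases, against 72 for the 356 other nuclear tRNA genes. The 4 Leu-CAA genes, which hold an intron, measured 105 to 107 bases, and the single Ser-GGA gene measured 73 bases.

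The libraries held 596152 to 853326 tRNA UMIs in CYP and 873718 to 2212083 in Control, with 9403147 to 11454264 miRNA UMIs in CYP and 9110719 to 12180739 in Control. Control library 1 stood apart, with 90.8% of its tRNA UMIs on Gly, Glu and Val tRNAs, against 79.6% and 84.7% in the other Control libraries and 70.0% to 77.2% in CYP. Reads too short to be used made up 12.8% to 15.6% of CYP libraries and 6.74% to 11.7% of Control libraries. Markers of bladder cell types were checked in the miRNA table, and none of them was at 0. The sum of 2 smooth muscle miRNAs was 249642 to 261863 per 1000000 miRNA UMIs in CYP and 258736 to 281028 in Control, while the liver miRNA miR-122-5p was at 4.63 to 7.23 in CYP and 5.01 to 6.91 in Control. Urothelial markers summed to 39190 to 42386 in CYP and 35435 to 37503 in Control, and red cell markers to 317 to 373 in CYP and 441 to 532 in Control, without overlap. Taken alone, the urothelial markers miR-205-5p and miR-200c-3p overlapped between the groups, while the other urothelial markers did not. The sums of leukocyte, endothelial and skeletal muscle markers overlapped between the groups. Among the skeletal muscle markers, miR-206-3p was at 41.7, 54.8 and 215 in CYP libraries 1, 2 and 3. It was at 23.4, 17.7 and 41.9 in Control libraries 1, 2 and 3, while the far more abundant miR-1a-3p and miR-133a-3p overlapped. Among the leukocyte markers, miR-150-5p was at 328 to 353 in CYP and 571 to 776 in Control, without overlap, while miR-223-3p was at 1321 to 1660 in CYP and 1129 to 1329 in Control. The part of these differences in the results on tRNAs was not tested.

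Leu, Ser and SeC tRNAs together were a small share of the tRNA UMIs, at 2.59%, 2.52% and 3.39% in CYP libraries 1, 2 and 3, and 0.498%, 1.28% and 2.34% in Control libraries 1, 2 and 3. Set against the miRNAs of the same library, they reached 1738, 2076 and 2150 UMIs per 1000000 miRNA UMIs in CYP, against 998, 1399 and 1675 in Control. Every CYP library lay above every Control library on this scale, although CYP library 1 exceeded Control library 3 by little. The mean level in CYP was 1.46 times that in Control. In bulk samples, fewer cells of a type and less RNA per cell cannot be told apart, so a difference in level may be of either kind.

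Of the 10 anticodons of these tRNAs with enough UMIs to be tested, none passed edgeR's quasi-likelihood test at a Benjamini-Hochberg adjusted p under 0.05. Of all 70 anticodons and mitochondrial tRNAs tested, 10 were called, which is 14.3%, with 1 higher in CYP (1.43%) and 9 lower (12.9%). With library sizes taken from the miRNAs, 4 of the 70 were called (5.71%), again with none among the 10. DESeq2 called 28 of the 70 (40%), among them Leu-CAG and Leu-AAG. At an unadjusted p under 0.05, 2 of the 10 anticodons passed, both of them Leu, beside 37.1% of all 70 tested in either direction. The median log2 fold change of the 10 anticodons was 0.16, and that of all 70, mitochondrial tRNAs included, was -0.06. The order turned when only cytosolic rows were fitted. The medians were then -0.02 for the 10 anticodons, 5 of them positive, and 0.08 for all 48.

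**Figure D1:**
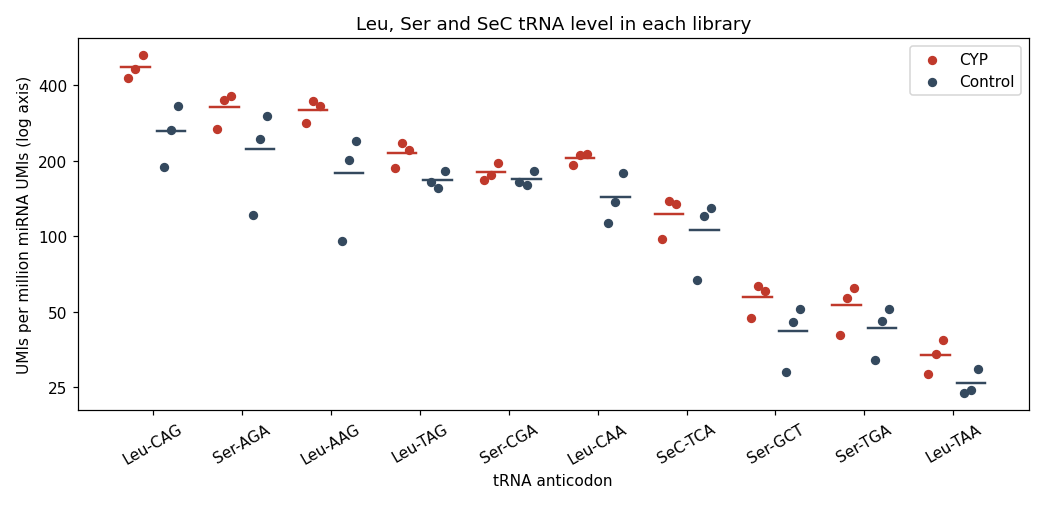
Level of each tested anticodon in UMIs per 1000000 miRNA UMIs on a log axis, with 1 point per library and the group mean as a bar. CYP points for Leu-CAG lie between 427 and 529, above the Control points at 188 to 331, while the Ser-CGA points of both groups lie close together.

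Leu-CAG and Leu-AAG had the largest log2 fold changes of the 10 anticodons, and neither passed the adjusted threshold. Leu-CAG, which reads CUG, the leucine codon used most in mammals, held 21.9% of the UMIs of the Leu, Ser and SeC rows. It had 4892, 4819 and 4975 UMIs in CYP libraries 1, 2 and 3, against 2077, 2415 and 4037 in Control libraries 1, 2 and 3. All CYP libraries exceeded all Control libraries, and Control library 3 was well above the other Control libraries. On the scale of counts per 1000000 after trimmed-mean (TMM) scaling of the anticodon sums (CPM), it averaged 4797 ± 539 CPM in CYP and 3114 ± 644 CPM in Control (SD, n = 3 each). The edgeR log2 fold change was 0.62 ± 0.25 (SE), with a Benjamini-Hochberg adjusted p of 0.0735 and an unadjusted p of 0.0190.

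Leu-AAG, whose first anticodon base is edited to inosine in mature mammalian tRNA, had 3247, 3588 and 3105 UMIs in CYP, against 1054, 1830 and 2916 in Control. The groups did not overlap, and Control library 3 came close to CYP library 3. It averaged 3238 ± 321 CPM in CYP and 2103 ± 747 CPM in Control (SD, n = 3 each). Its edgeR log2 fold change was 0.62 ± 0.26 (SE), with an adjusted p of 0.0768. These were the 2 anticodons among the 10 whose CPM values did not overlap between groups, beside 28.6% of all 70 with CYP above Control.

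Whether either anticodon was called depended on single Control libraries. Without Control library 1, edgeR gave Leu-CAG a log2 fold change of 0.49 (adjusted p = 0.0160) and Leu-AAG one of 0.36 (adjusted p = 0.0499). Without Control library 3, the values were 0.80 (adjusted p = 0.0343) and 0.86 (adjusted p = 0.0473). Over the 18 alternatives run, the adjusted p ran from 0.00460 to 0.257 for Leu-CAG and from 0.0185 to 0.287 for Leu-AAG, and the log2 fold change was above 0 in all of them.

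The other leucine anticodons had smaller log2 fold changes. Leu-CAA, which reads UUG and comes from genes with an intron, had 2205, 2185 and 2003 UMIs in CYP and 1246, 1250 and 2183 in Control. Control library 3 was as high as the CYP libraries. The log2 fold change was 0.29 ± 0.19 (SE, edgeR, adjusted p = 0.227).

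Leu-TAG had 2138, 2446 and 2080 UMIs in CYP and 1808, 1419 and 2214 in Control, with a log2 fold change of 0.10 ± 0.19 (SE, edgeR, adjusted p = 0.653). Leu-TAA, the least abundant of the leucine anticodons, had 322, 351 and 361 UMIs in CYP and 260, 222 and 360 in Control, with a log2 fold change of 0.11 ± 0.15 (SE, edgeR, adjusted p = 0.536). The groups overlapped in both. In UMIs per 1000000 miRNA UMIs, Leu-AAG, Leu-CAA, Leu-CAG and Leu-TAG lay higher in every CYP library than in every Control library. These were 4 of the 10 anticodons, beside 25.7% of all 70.

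**Figure D2:**
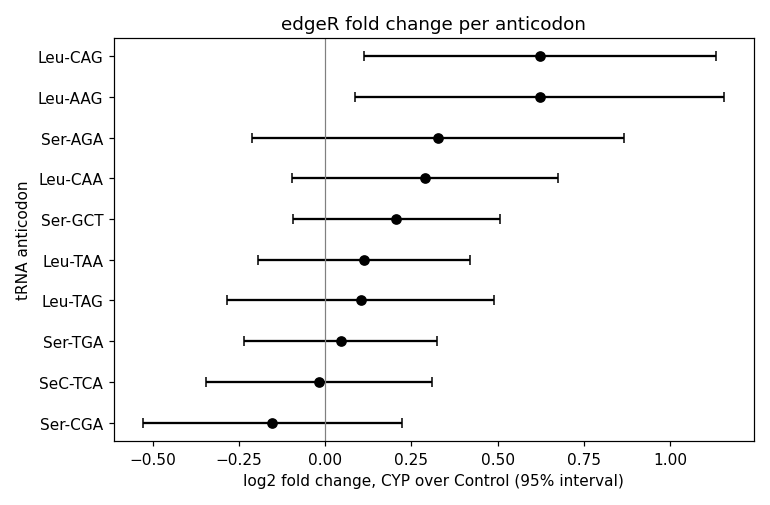
edgeR log2 fold change, CYP over Control, for the 10 tested anticodons, with 95% intervals as bars. Leu-CAG (0.62) and Leu-AAG (0.62) lie highest and Ser-CGA (-0.15) lowest, and none passed the adjusted threshold.

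No serine anticodon passed the test. Ser-AGA, the most abundant of them and, like Leu-AAG, read with inosine, had 3063, 3634 and 3421 UMIs in CYP and 1342, 2220 and 3664 in Control. Control library 1 was far below the rest, and Control library 3 was the highest of all 6. The log2 fold change was 0.33 ± 0.26 (SE, edgeR, adjusted p = 0.336), with a 95% interval of -0.21 to 0.87.

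Ser-CGA, which reads the serine codon UCG, had 1925, 1824 and 1846 UMIs in CYP and 1811, 1457 and 2213 in Control. The CYP counts lay inside the Control range, while in CPM CYP had 2117, 1633 and 1743 against 2209, 1811 and 2087 in Control. The log2 fold change was -0.15 ± 0.18 (SE, edgeR, adjusted p = 0.481). Ser-GCT, which reads the AGC and AGU codons, had 541, 657 and 567 UMIs in CYP and 317, 412 and 624 in Control, with a log2 fold change of 0.21 ± 0.14 (SE, edgeR, adjusted p = 0.261).

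Ser-TGA had 461, 588 and 585 UMIs in CYP and 354, 417 and 621 in Control, with a log2 fold change of 0.04 ± 0.13 (SE, edgeR, adjusted p = 0.775). The 95% interval of the log2 fold change ran from -0.23 to 0.32. Ser-GGA had 0, 13 and 7 UMIs in CYP and 6, 11 and 0 in Control and was too low to be tested. It is also the anticodon whose RefSeq gene is short.

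SeC-TCA, the tRNA that inserts selenocysteine at UGA codons of selenoprotein mRNAs, came from a single row. It had 1113, 1429 and 1263 UMIs in CYP and 737, 1091 and 1575 in Control. The Control libraries spanned the whole CYP range. The level was 1232 ± 44.2 CPM in CYP and 1247 ± 308 CPM in Control (SD, n = 3 each), with a log2 fold change of -0.02 ± 0.16 (SE, edgeR, adjusted p = 0.925) and a 95% interval of -0.35 to 0.31. The log2 fold changes of Leu-TAA, Leu-TAG, Ser-CGA, Ser-GCT, Ser-TGA and SeC-TCA changed sign under at least 1 other scaling, row set or left-out library.

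Ratios within the set need no scaling between libraries. The Leu tRNAs had 2.14, 1.99 and 1.95 UMIs per Ser tRNA UMI in CYP, against 1.68, 1.58 and 1.64 in Control. Each CYP library exceeded each Control library, Control library 1 included, and the ratio averaged 2.03 ± 0.0986 in CYP and 1.64 ± 0.0520 in Control (SD, n = 3 each). Leu-CAG made up 24.6%, 22.4% and 24.6% of all Leu, Ser and SeC UMIs in CYP and 18.9%, 18.95% and 19.8% in Control, with the Control libraries within 1 percentage point of each other. Leu-AAG made up 16.3%, 16.7% and 15.4% in CYP and 9.57%, 14.4% and 14.3% in Control, also higher in every CYP library.

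Ser-CGA made up 9.67%, 8.47% and 9.13% in CYP and 16.4%, 11.4% and 10.8% in Control, so its share was lower in every CYP library. SeC-TCA made up 5.59%, 6.64% and 6.25% in CYP and 6.69%, 8.56% and 7.72% in Control, also without overlap but with CYP library 2 just under Control library 1. Ser-TGA made up 2.32%, 2.73% and 2.89% in CYP and 3.21%, 3.27% and 3.04% in Control, again lower in every CYP library. The shares of the other 6 anticodons overlapped between the groups. These shares sum to a fixed total, so a larger share of 1 anticodon lowers the others. They are given as a description with no test, and shares of other tRNAs were not worked out for comparison.

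**Figure D3:**
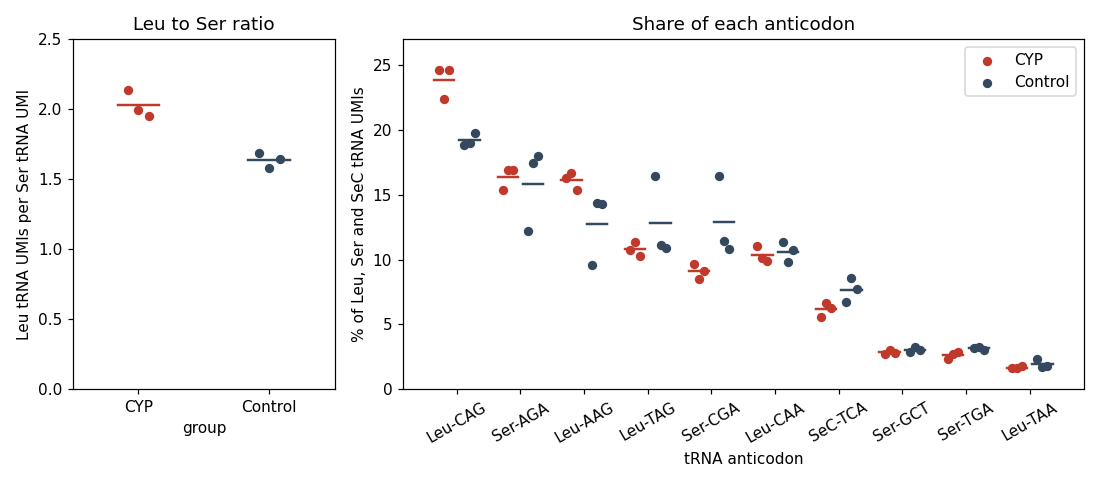
Left, Leu tRNA UMIs per Ser tRNA UMI, with 1 point per library and group means as bars; right, the share of each anticodon among all Leu, Ser and SeC UMIs in percent. The CYP points lie above the Control points in the ratio (1.95 to 2.14 against 1.58 to 1.68) and for Leu-CAG.

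Summed per amino acid, Leu averaged 13439 ± 1104 CPM in CYP and 8661 ± 1189 CPM in Control (SD, n = 3 each), on the scale of the amino acid sums. Its edgeR log2 fold change was 0.63 ± 0.26 (SE), with a Benjamini-Hochberg adjusted p of 0.0663. Ser averaged 6625 ± 255 CPM in CYP and 5314 ± 888 CPM in Control (SD, n = 3 each), with a log2 fold change of 0.32 ± 0.22 (SE, edgeR, adjusted p = 0.270). None of the 3 amino acids was called, beside 8 of 42 sums in the table, or 19%. The sum for Leu passed the threshold under 5 of the 18 alternatives, among them each fit that left out 1 Control library, with edgeR adjusted p-values of 0.0297, 0.0186 and 0.0272 without Control libraries 1, 2 and 3.

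Single gene copies were then compared. By the naming of the rows, copies with the same isodecoder number share 1 mature sequence, and the sources used here do not give how reads were split between them, which leaves single copies uncertain. Of the 47 copies, 46 had enough UMIs to be tested. None was called, nor was any of the 369 rows tested, which is 0%. At an unadjusted p under 0.05 edgeR gave 7 of the 46, all of them Leu copies with a positive log2 fold change. Over the 369 rows, 80 passed in either direction, or 21.7%. DESeq2 called 72 rows of the table (19.5%), 6 of them among these copies.

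The copy with the smallest p was Leu-CAG-1-1, the most abundant Leu-CAG copy, with 2053, 1792 and 1685 UMIs in CYP and 818, 798 and 1121 in Control. The groups did not overlap, and Control library 1 did not stand apart for this copy. The log2 fold change was 0.75 ± 0.21 (SE, edgeR, adjusted p = 0.173). In all, 8 of the 46 copies had CPM values higher in every CYP than in every Control library, all of them Leu, beside 14.6% of the 369 rows.

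Copies of 1 anticodon did not all follow their sum. Leu-TAG-3-1, which held 60.2% of the Leu-TAG UMIs, had 1172, 1373 and 1168 UMIs in CYP and 1429, 842 and 1303 in Control, with Control library 1 the highest of all 6. Leu-TAG-2-1 had 180, 243 and 217 UMIs in CYP and 69, 94 and 184 in Control. Its log2 fold change was 0.65 ± 0.25, against -0.24 ± 0.25 for Leu-TAG-3-1 (SE, edgeR, adjusted p = 0.198 and 0.494).

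The top copies of the serine anticodons did not pass the test either. Ser-AGA-1-1, with 52.2% of the Ser-AGA UMIs, had 1627, 1920 and 1665 UMIs in CYP and 728, 1235 and 1870 in Control. Ser-CGA-2-1 had 1215, 1178 and 1137 in CYP and 1125, 914 and 1372 in Control. Their edgeR log2 fold changes were 0.21 ± 0.27 and -0.22 ± 0.20 (SE, adjusted p = 0.588 and 0.460).

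For the remaining anticodons the top copy was Leu-AAG-1-2 with a log2 fold change of 0.64, Leu-CAA-3-1 with 0.36, Leu-TAA-1-1 with 0.20, Ser-GCT-4-2 with 0.20 and Ser-TGA-1-1 with -0.02 (edgeR, adjusted p from 0.261 to 0.931). Copies named for the same mature sequence differed widely in UMIs. The 5 copies of Leu-CAG-1 ran from 234 to 8267 UMIs over the 6 libraries, and the 3 copies of Ser-GCT-4 from 65 to 1999.

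**Figure D4:**
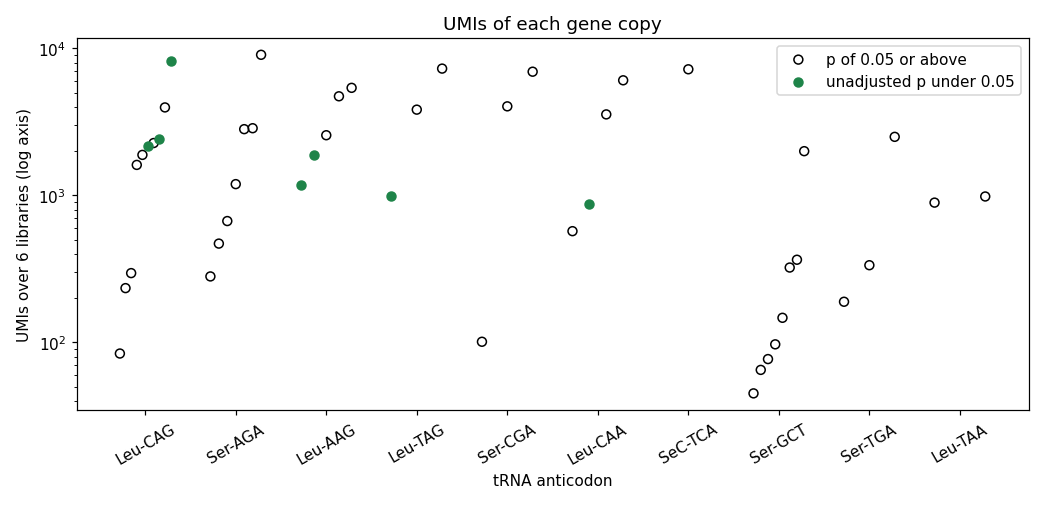
UMIs over the 6 libraries for each of the 46 tested gene copies on a log axis, grouped by anticodon. The 7 filled points passed an unadjusted p under 0.05 in edgeR, all of them Leu copies, and none passed after adjustment.

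The mitochondrial tRNAs for leucine and serine, encoded by the mitochondrial genome and not among the 47 rows, were set beside them. The leucine tRNA mt-Tl1 had 925, 853 and 989 UMIs in CYP and 1261, 922 and 1386 in Control. On the CPM scale of the anticodon sums it fell, with a log2 fold change of -0.56 ± 0.14 (SE, edgeR, adjusted p = 0.00933). In UMIs per 1000000 miRNA UMIs, it had 80.8, 82.2 and 105 in CYP and 114, 101 and 114 in Control, and the groups overlapped. The edgeR call was lost with miRNA scaling (log2 fold change -0.42, adjusted p = 0.0850), without CYP library 2 (adjusted p = 0.148), CYP library 3 (adjusted p = 0.106) or Control library 2 (adjusted p = 0.0761), and with library totals, where the sign turned (0.32, adjusted p = 0.638). All 22 mitochondrial tRNAs had a log2 fold change below 0 on the CPM scale of the anticodon sums, with a median of -0.34, and 6 of them were called. On the scale of the amino acid sums, some lay above 0, such as mt-Tg and mt-Tv, and others below. There mt-Ta and mt-Te lost their calls (edgeR adjusted p = 0.244 and 0.270). None, mt-Tl1 included, was called in the fit of gene copies. In the anticodon sums, the other leucine tRNA, mt-Tl2, had a log2 fold change of -0.39 (adjusted p = 0.196). The serine tRNAs mt-Ts1 and mt-Ts2 had log2 fold changes of -0.13 (adjusted p = 0.458) and -0.66 (adjusted p = 0.157), and the sign of all these mitochondrial values turned with library totals.

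The uncharacterized sequences showed which ends of the Leu and Ser tRNAs were captured outside the tRNA table. Of the 33 sequences, 19 were 3′ pieces that ended in CCA, with 6644 of their 7718 UMIs. Another 4 were 5′ pieces, 4 were trailers that lay wholly past the 3′ end of the gene, 5 ran from the tRNA past its 3′ end, and 1 ended in CC. Pieces of 18 bases made up 37.7% and pieces of 22 bases 41.4% of the UMIs that ended in CCA. A sequence can match several genes, and the placement at 1 gene is the authors'.

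The 3′ pieces ending in CCA had 1354, 1216 and 1211 UMIs in CYP and 885, 861 and 1117 in Control. In UMIs per 1000000 miRNA UMIs, they reached 118, 117 and 129 in CYP, against 80.2, 94.5 and 91.7 in Control, without overlap. Of the 18 tested, none was called by edgeR and none had an unadjusted p under 0.05, while 16 had a positive log2 fold change, with a median of 0.30. The median over all 942 uncharacterized sequences tested was 0.08, of which 13, or 1.38%, were called, and 12.2% had an unadjusted p under 0.05. At the other nuclear tRNA genes, 44 of 50 such 3′ pieces were positive, with a median of 0.36.

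The 2 most abundant 3′ pieces were those printed above for Ser-AGA and Ser-GCT. The 18-base piece atcctgccgactacgCCA had 358, 286 and 359 UMIs in CYP and 246, 242 and 325 in Control. The 22-base piece tcgaatcccatcctcgtcgCCA had 402, 338 and 275 UMIs in CYP and 274, 206 and 239 in Control. Their log2 fold changes were 0.14 ± 0.17 and 0.31 ± 0.20 (SE, edgeR, adjusted p = 0.787 and 0.566).

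The 18-base piece at Ser-CGA n-TScga2 had 91, 100 and 89 UMIs in CYP and 63, 70 and 106 in Control, with a log2 fold change of 0.08 ± 0.19 (SE, edgeR, adjusted p = 0.916). The 23-base piece at Leu-CAA n-TLcaa3 had 21, 45 and 28 UMIs in CYP and 3, 20 and 35 in Control, with a log2 fold change of 0.58 ± 0.58 (SE, edgeR, adjusted p = 0.745). The groups overlapped in both.

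The 5′ pieces lay on the other side. All 4 are 19 bases long, begin 1 base upstream of a Ser gene and end at its base 18, and they share their last 11 bases. The piece at Ser-TGA n-TStga3 had 17, 24 and 10 UMIs in CYP, against 49, 44 and 51 in Control. The highest CYP count was below the lowest Control count, and the piece fell in CYP with a log2 fold change of -1.67 ± 0.31 (SE, edgeR, adjusted p = 0.0420).

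The piece at Ser-AGA n-TSaga9 had 17, 14 and 12 UMIs in CYP, against 30, 31 and 37 in Control. The groups again did not overlap, and the piece fell with a log2 fold change of -1.35 ± 0.27 (SE, edgeR, adjusted p = 0.0496). Its last 18 bases are also those of the piece at n-TStga2, so they do not tell Ser-AGA from Ser-TGA. The n-TStga2 piece, which differs from it at the first base, had 0, 8 and 4 UMIs in CYP and 13, 17 and 13 in Control (log2 fold change -1.99, edgeR adjusted p = 0.540). The piece at Ser-CGA n-TScga2 had 12, 0 and 9 UMIs in CYP and 0, 11 and 11 in Control (log2 fold change -0.21, edgeR adjusted p = 0.969).

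In all, 2 of the 4 tested 5′ pieces were called lower in CYP, beside 0.849% of the 942 sequences in that direction. Both adjusted p-values were close to the threshold and rest on few UMIs. Over the 14 alternatives run, the n-TStga3 piece kept its call in 6 and the n-TSaga9 piece in 5, with adjusted p-values from 0.000256 to 0.214 and from 0.0127 to 0.236. The log2 fold change was below 0 in all 14 for both pieces, and neither was called without any 1 of the CYP libraries, without Control library 2 or without Control library 3. At the other nuclear tRNA genes, 0 of 14 tested 5′ pieces were called by edgeR and 3 had an unadjusted p under 0.05. Their median log2 fold change was 0.35. They are not matched to the Ser pieces, since only 3 of all 17 begin 1 base upstream of the gene. The difference from the Ser pieces was not tested.

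Within a library, these 5′ and 3′ pieces can be set against each other without scaling. They are uncharacterized sequences only, and the 5′ ones all lie at Ser genes. Pieces counted in the tRNA rows have no known position, so the ratio may not hold for all pieces of these tRNAs. The 2 pieces called lower held 195 and 141 of the 434 UMIs of the 5′ pieces. There were 3.40, 3.78 and 2.89 UMIs of the 5′ pieces per 100 UMIs of the 3′ pieces ending in CCA in CYP, against 10.4, 11.96 and 10.03 in Control. All 3 CYP libraries lay far below all 3 Control libraries, and Control library 1 did not stand apart. The ratio averaged 3.36 ± 0.448 in CYP and 10.8 ± 1.03 in Control (SD, n = 3 each). The share of reads too short to be used was also higher in CYP, as given above, and its part in this ratio was not tested.

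**Figure D5:**
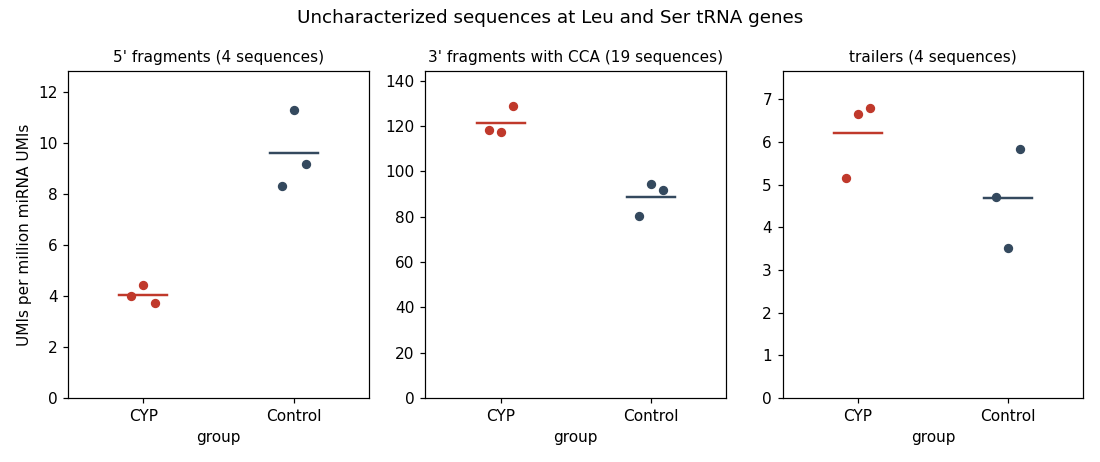
UMIs per 1000000 miRNA UMIs of the 4 5′ pieces, the 19 3′ pieces ending in CCA and the 4 trailers at Leu and Ser tRNA genes, with 1 point per library and group means as bars. CYP points lie below Control points for the 5′ pieces (3.72 to 4.43 against 8.34 to 11.3) and above them for the 3′ pieces (117 to 129 against 80.2 to 94.5).

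None of the other pieces that were tested at these genes was called by edgeR, and 1 had an unadjusted p under 0.05. The trailers, left when a precursor is cut at its 3′ end, summed to 59, 69 and 64 UMIs in CYP and 52, 32 and 71 in Control, and the groups overlapped. Of the 4 trailers, 3 came from Ser-CGA n-TScga2 and began right after its last base, while the one at Leu-TAA n-TLtaa2 began 1 base further on.

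The 5 pieces that ran past the 3′ end summed to 48, 41 and 53 UMIs in CYP and 15, 29 and 35 in Control, without overlap. In UMIs per 1000000 miRNA UMIs, they averaged 4.59 ± 0.911 in CYP and 2.47 ± 0.975 in Control (SD, n = 3 each), a ratio of 1.86. Of the 5, 3 passed the filter on low counts and were tested, with edgeR adjusted p-values of 0.743 to 0.843. The sum of the 5 was not tested. Alone, the 3 at Leu-CAA had 22, 27 and 36 UMIs in CYP and 9, 19 and 35 in Control, and the groups overlapped. The piece at Ser-AGA n-TSaga5 is the 18-base piece printed above with 1 more base, so it may be a CCA end. It had 16, 0 and 17 UMIs in CYP and 0, 10 and 0 in Control. The 21-base piece that ended in CC at n-TSgct3 had 11, 7 and 4 UMIs in CYP and 15, 14 and 21 in Control, with a log2 fold change of -1.34 ± 0.51 (SE, edgeR, adjusted p = 0.292).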

How the data were processed

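Small RNA of 3 CYP and 3 Control libraries was analysed from the authors' deposited tables, whose values are whole-number counts of UMIs and of reads per feature, not normalized, per the file headers. The tools named in the submitters' processing notes are STAR 2.6, FastQC 0.11.7, DESeq2 and Trim Galore, with the mm10 build; the sources used here name no counting tool. No deposited per-sample column was left without a sample (0).

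UMI counts were summed per anticodon, gene copy and amino acid over the whole tRNA table and tested with edgeR 4.0.16 in R 4.3.3. The robust quasi-likelihood test was run on the group term, with TMM factors, a minimum count of 10, a minimum total of 15, Benjamini-Hochberg adjustment over all features and a call at an adjusted p under 0.05. Each level has its own CPM scale. The uncharacterized sequences were fitted the same way, a test added after the data were seen, and placed by the table's positions against RefSeq genes. DESeq2 1.42.0, other scalings, filters, row sets and left-out libraries were alternatives. The script was tested on simulated counts. Intervals come from the edgeR fit. Libraries of a group differed by more than sampling noise (chi-square per degree of freedom 2.53 to 25.4).

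The members, lists and tests were chosen with earlier results of these data known. Named were all anticodons, the most abundant copy of each, copies called (none) and the mitochondrial Leu and Ser tRNAs; Leu-TAG-2-1 and the pieces were named after their values were seen. Figures were drawn with matplotlib 3.10.9. Whole tRNA gene sequences are not reported here.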

Additional observations from a re-analysis of the deposited data

How the results depend on the processing

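Over the whole table, anticodon calls moved from 10 to 28 with DESeq2, 25 with a replicate block, 4 with miRNA scaling, 3 with cytosolic rows only and 0 with library totals, and to 1 to 18 when 1 library was left out. Amino acid calls moved from 8 to 16 with DESeq2, 1 with cytosolic rows only, 1 with a replicate block and 0 with library totals, and to 1 to 17 with 1 library left out. Gene copy calls moved from 0 to 72 with DESeq2, 2 without Gly, Glu and Val rows (added after the data were seen) and 0 to 64 with 1 library left out. Among Leu, Ser and SeC, calls moved from 0 anticodons to 2 with DESeq2, 1 with the replicate block and 0 to 2 with 1 library left out; from 0 copies to 6 with DESeq2 and 0 to 6; and from 0 amino acids to 2 with upper-quartile factors, 1 with DESeq2 and 0 to 1. Called pieces at Leu and Ser genes moved from 2 to 0 with library totals, 0 with miRNA scaling, 0 with upper-quartile factors, 1 with no filter and 0 to 2 with 1 library left out. The cause was not tested.

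Signs changed as follows on the log2 scale. With upper-quartile factors, Leu-TAA was -0.14, Leu-TAG -0.16, Ser-GCT -0.040 and Ser-TGA -0.20. With cytosolic rows only, Leu-TAA was -0.077, Leu-TAG -0.10, Ser-TGA -0.13 and the SeC sum -0.0050. Without Gly, Glu and Val rows, they were -0.014, -0.031, -0.069 and -0.0011. SeC-TCA was 0.70 with library totals, 0.13 with miRNA scaling, 0.012 with the replicate block, and -0.21 to 0.13 with 1 library left out. With library totals, Ser-CGA was 0.68, mt-Tl1 0.32, mt-Tl2 0.44, mt-Ts1 0.64 and mt-Ts2 0.26; mt-Ts1 was 0.0055 with miRNA scaling. With 1 library left out, mt-Ts1 ran from -0.26 to 0.065, Ser-TGA from -0.065 to 0.17 and the SeC sum from -0.049 to 0.36. Library totals moved the median of all 70 to 0.75, and upper-quartile factors to -0.31, against -0.06.

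Same-numbered libraries correlated at -0.03, 0.77 and -0.10 in their deviations from the group means. Those with different numbers ran from -0.82 to 0.58. With 3 libraries a group, these values cannot decide whether the numbers pair libraries. For the summed level per miRNA UMI, the difference between the group means of the log2 values was 0.58, and it ran from 0.37 to 0.74. The 1.46 given above is a ratio of group means, which is another measure. Low UMI counts limit the 5′ pieces, and 3 libraries a group limit every test.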

Other observations

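Of the 47 RefSeq genes for nuclear Leu and Ser tRNAs, 19 lie on chromosome 13, all of them between bases 21170036 and 23521951 of GRCm38.p6. Chromosome 13 also holds 86 of the 356 other nuclear tRNA genes. Reads per UMI ran from 1.00 to 1.06 over the 46 tested copies, so few molecules of these tRNAs were read more than once.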
